A study of Mus musculus with 9 samples.

Results

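The transcripts of 9 transcription factor genes that set or maintain macrophage identity were examined in RAW264.7 cells, an established mouse line of monocyte and macrophage origin. The genes were Maf, Spi1, Cebpa, Cebpb, Irf8, Klf2, Klf4, Klf6 and Runx1, which are 9 of the 28137 gene identifiers in the deposited expression table, of which 27533 had a name in the GENCODE M21 mouse annotation. They were chosen by name, with their values in the groups in view, so their levels and differences are given as descriptions without p-values. Where a member is said to pass or miss a threshold, this describes the fit and is no test of that member. Cells were transfected with control siRNA (NC), with siRNA against SFRP2, a secreted modulator of Wnt signaling, or with siRNA against RAB6A, a small GTPase of Golgi transport, and 3 libraries were sequenced per group. Per the labels, all 3 groups were given 60 nM siRNA by lipofection for 6 h in serum-free DMEM, then complete medium for 12 h, then lipopolysaccharide (LPS) at 100 ng/ml to drive an inflammatory (M1) state, with RNA taken after 24 h of polarization. No group without siRNA or without LPS was analysed here, so each value belongs to transfected and stimulated cells. Sample titles also carry the tag 6H, and which step it marks is not stated. The paper gives other siRNA conditions and IFN-γ added to the LPS, and does not describe the RAB6A group. The labels do not say whether replicates were separate cultures, so the p-values below measure only the spread between these libraries.

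Macrophages are built by a small set of DNA-binding proteins. PU.1, the product of Spi1, is the ETS factor without which the myeloid lineage does not form, and it opens enhancers together with C/EBPα (Cebpa), C/EBPβ (Cebpb) and Runx1. Irf8 is an interferon regulatory factor that binds with PU.1 and steers progenitors to monocytes rather than granulocytes. Klf2, Klf4 and Klf6 are zinc finger factors that tune inflammatory genes, and c-Maf (Maf) is a leucine zipper factor that halts macrophage division and drives Il10.

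Libraries held 32297214 to 37052593 fragments counted in named genes in the RAB6A siRNA group and 34296648 to 46544869 in the other groups, and deposited FPKM values (fragments normalized to transcript length and to library depth) summed to 399883 to 410877 in the first and 361817 to 373756 in the others. Of 12 macrophage markers, 11 passed the expression filter in the cells and Mertk did not. Their summed FPKM was 5068 to 5566 in NC, 4518 to 4866 in SFRP2 siRNA and 4815 to 5102 in RAB6A siRNA libraries. Cd68 (1850 FPKM) and Cd14 (1679) were its largest parts in NC, so the sum hides changes of single markers in both directions. With RAB6A siRNA the means of Lyz2 (872 to 214) and Csf1r (73.6 to 27.0) were lower, and those of Tyrobp (210 to 413) and Aif1 (4.88 to 9.86) higher. Summed markers of granulocytes and progenitors stayed at or below 0.836 FPKM, and those of T cells at or below 0.117 FPKM. Dendritic cell markers, in NC mostly Xcr1, summed to 1.09 to 1.28 FPKM in NC, 1.10 to 1.58 in SFRP2 siRNA and 0.123 to 0.141 in RAB6A siRNA libraries, and those of B cells, erythroid cells, fibroblasts and epithelium, and endothelium each stayed at or below 4.87 FPKM. Rab6a itself was 25.7 ± 1.48 FPKM (SD, n = 3) in NC and 20.7 ± 0.445 (n = 3) in RAB6A siRNA libraries, a log2 fold change of -0.31 (SE 0.06, adjusted p = 0.0024 by limma). Adjustment for GC content and length left -0.09 (limma adjusted p = 0.229), and 73.3% of all genes tested had a larger change than Rab6a. Sfrp2 had 2 to 4 reads per library in every group, so its level could not check the SFRP2 label. The part of the differences in depth, FPKM total and markers in the results below was not tested.

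In NC cells the 9 factors spanned a wide range of levels per length. Spi1 stood first with 130 ± 9.28 FPKM (SD, n = 3), followed by Irf8 with 51.3 ± 3.35, Maf with 13.5 ± 1.87, Klf6 with 13.1 ± 1.04, Klf2 with 9.24 ± 0.243 and Cebpa with 6.78 ± 0.539. Runx1 followed at 4.73 ± 0.118, Cebpb at 3.46 ± 0.385 and Klf4 at 0.590 ± 0.0931 FPKM. Maf and Klf6 were the only neighbours in this order whose ranges over the 3 libraries overlapped. SFRP2 siRNA cells kept this order of means, with overlap also between Klf2 and Cebpa and between Runx1 and Cebpb. RAB6A siRNA cells had another order, in which Irf8 came before Spi1, followed by Klf6, Klf2, Runx1, Cebpb, Cebpa and Klf4, with Maf last. Neighbours that overlapped there were Klf2 with Runx1 and Cebpb with Cebpa. Irf8 and Spi1 were barely apart, with 68.6 FPKM in the lowest Irf8 library and 68.1 in the highest Spi1 library.

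**Figure D1:**
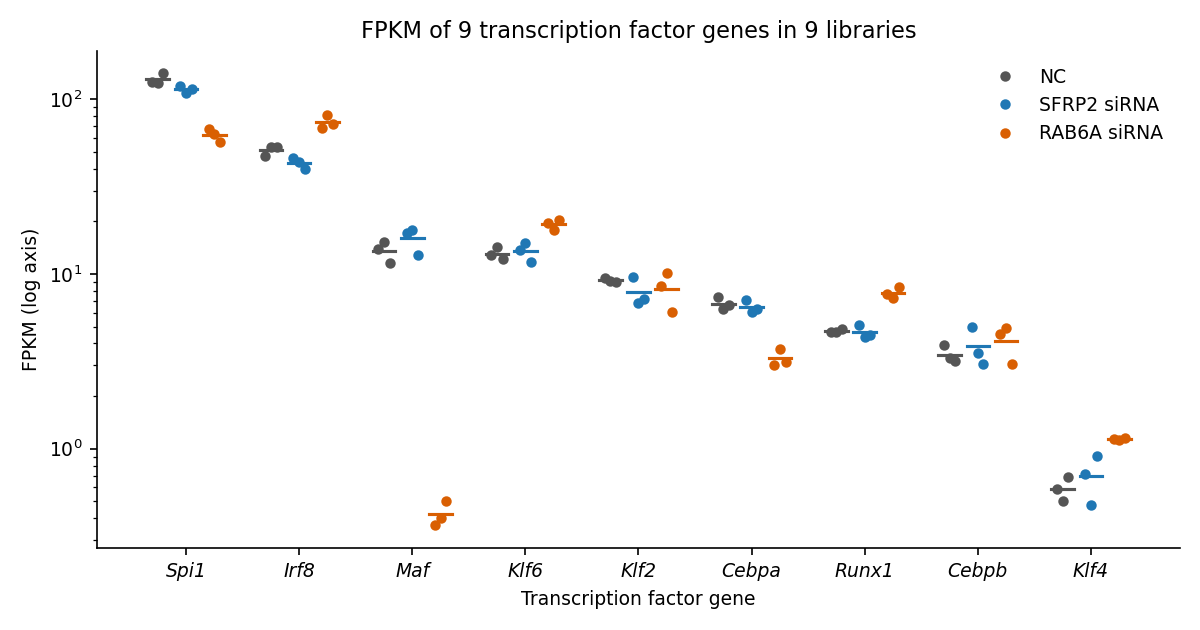
FPKM (log axis) of each factor gene in each library, ordered by the NC mean, with grey points for NC, blue for SFRP2 siRNA and orange for RAB6A siRNA and a bar at each mean of 3 libraries. Maf lies at 11.5 to 15.2 in NC and 0.364 to 0.50 in RAB6A siRNA libraries, while the blue and grey points lie close together.

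With RAB6A siRNA, 7 of the 9 factors had levels apart from NC in every library. Maf, Spi1 and Cebpa were lower, Irf8, Klf4, Klf6 and Runx1 were higher, and Cebpb and Klf2 overlapped with NC. By comparison, 77.4% of the 12712 genes tested had groups that did not overlap, 39.2% higher and 38.2% lower, and nothing is read from the members' counts because these values were in view when they were chosen. Adjusted p was under 0.05 for 74.1% of all genes tested, and 30.1% were called, which also required a log2 fold change above 1 in either direction. As a description only, 3 members lay past both thresholds, Maf, Spi1 and Cebpa. Without RAB6A siRNA replicate 3 only Maf, 1 member, stayed past them, and the voom fit on recovered reads, which called 31.4% of genes, put Maf and Klf4 past them. In bulk RNA such as this, fewer cells of a kind and less RNA per cell cannot be told apart.

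Maf (ENSMUSG00000055435, chr8:115682942-115707794 on the minus strand in the GRCm38 coordinates of GENCODE M21) was the factor with the largest difference. The NC libraries had 13.9, 15.2 and 11.5 FPKM, the SFRP2 siRNA libraries 17.2, 18.0 and 12.8, and the RAB6A siRNA libraries 0.364, 0.401 and 0.50. The lowest NC library was 23.0-fold above the highest RAB6A siRNA library. On means the NC level was 32.1-fold that of RAB6A siRNA, and on the log2(FPKM + 0.1) scale used for all fold changes here the difference was -4.71 (SE 0.14). Counts behind these values were 4028 to 5895 reads per NC library and 109 to 135 per RAB6A siRNA library, so Maf was still detected. Of all 12712 genes tested, 2 had a lower log2 fold change, namely Prl8a2 at -5.75 and Erv3 at -4.77, which are named because of their values.

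Among the factors that found the lineage, Spi1 (ENSMUSG00000002111, chr2:91082390-91115756, plus strand) had 126, 124 and 141 FPKM in NC, 120, 109 and 114 in SFRP2 siRNA, and 68.1, 63.4 and 57.3 in RAB6A siRNA libraries. All 3 RAB6A siRNA values lay below every other library, with a log2 fold change of -1.05 (SE 0.08). Cebpa (ENSMUSG00000034957, chr7:35119293-35121928, plus strand, a gene without introns) had 7.38, 6.33 and 6.62 FPKM in NC, 7.13, 6.04 and 6.33 in SFRP2 siRNA, and 3.00, 3.74 and 3.15 in RAB6A siRNA libraries. Its RAB6A siRNA values were again the lowest of the 9, and the log2 fold change was -1.02 (SE 0.10). Runx1 (ENSMUSG00000022952, chr16:92601466-92826149, minus strand), which forms the core binding factor with Cbfb, went the other way. It had 4.67, 4.65 and 4.86 FPKM in NC, 5.07, 4.38 and 4.46 in SFRP2 siRNA, and 7.64, 7.32 and 8.41 in RAB6A siRNA libraries, a log2 fold change of 0.71 (SE 0.07) from NC.

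Irf8 (ENSMUSG00000041515, chr8:120736358-120756694, plus strand) had 47.5, 53.1 and 53.3 FPKM in NC, 46.0, 43.8 and 40.1 in SFRP2 siRNA, and 68.6, 81.3 and 72.0 in RAB6A siRNA libraries. It was thus highest in RAB6A siRNA and lowest in SFRP2 siRNA cells, with no overlap among the 3 groups, and its log2 fold change with RAB6A siRNA was 0.53 (SE 0.08). Cebpb (ENSMUSG00000056501, chr2:167688915-167690418, plus strand), the C/EBP factor linked to inflammatory induction, had 3.90, 3.29 and 3.19 FPKM in NC, 4.98, 3.54 and 3.04 in SFRP2 siRNA, and 4.52, 4.90 and 3.04 in RAB6A siRNA libraries. The 3 groups overlapped, with a log2 fold change of 0.24 (SE 0.18) that was 0.44 without RAB6A siRNA replicate 3 and turned to -0.26 with the GC and length correction. Of the exon bases of Cebpb, 312 (20.7%) also belong to exons of Tmem189 on the opposite strand, a gene at 18.0 to 27.2 FPKM, and whether reads were counted by strand is not given in the sources used here, so the level of Cebpb is uncertain.

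The 3 KLF genes differed among themselves. Klf6 (ENSMUSG00000000078, chr13:5861482-5870394, plus strand) had 12.9, 14.2 and 12.2 FPKM in NC, 13.7, 15.0 and 11.8 in SFRP2 siRNA, and 19.7, 18.0 and 20.5 in RAB6A siRNA libraries, with a log2 fold change of 0.56 (SE 0.08) for RAB6A siRNA. Klf4 (ENSMUSG00000003032, chr4:55527143-55532466, minus strand), the scarcest factor in NC cells, had 0.583, 0.501 and 0.687 FPKM in NC, 0.712, 0.472 and 0.906 in SFRP2 siRNA, and 1.14, 1.13 and 1.15 in RAB6A siRNA libraries. Every RAB6A siRNA library was above all others, with a log2 fold change of 0.85 (SE 0.17), but each value rests on only 56 to 130 reads and quantile normalization lowered the difference to 0.41, at which Klf4 no longer passed an adjusted p of 0.05. Klf2 (ENSMUSG00000055148, chr8:72319033-72321656, plus strand) had 9.51, 9.14 and 9.05 FPKM in NC, 9.68, 6.86 and 7.18 in SFRP2 siRNA, and 8.58, 10.1 and 6.03 in RAB6A siRNA libraries. Its groups overlapped in both comparisons, and its log2 fold change with RAB6A siRNA was -0.20 (SE 0.17). This was 0.01 without RAB6A siRNA replicate 3 and -0.56 with the GC and length correction, where Klf2 passed an adjusted p of 0.05.

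**Figure D2:**
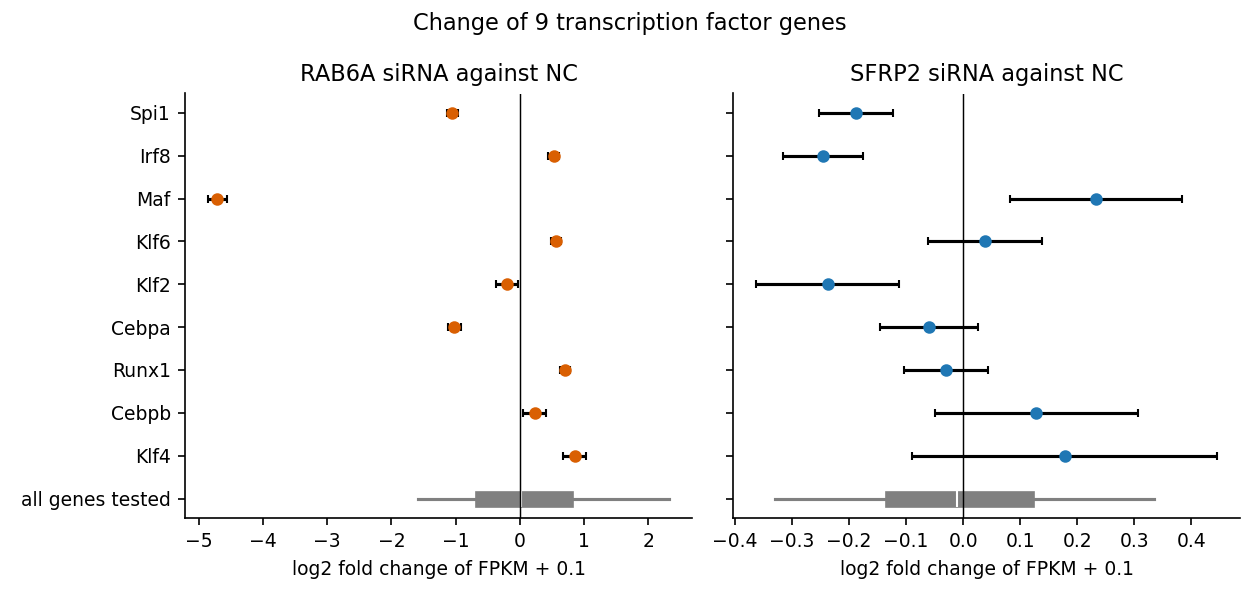
Log2 fold change (FPKM + 0.1) of each factor gene against NC, RAB6A siRNA on the left and SFRP2 siRNA on the right with a narrower axis, as points with standard errors. The grey bar at the bottom spans the middle 50% of all genes tested and the line the 5th to 95th percentiles, -1.58 to 2.32 on the left, where only Maf at -4.71 lies outside, and -0.33 to 0.33 on the right.

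The balance within pairs of factors differed as well. Irf8 over Spi1, 2 proteins that bind composite DNA sites together, was 0.394 ± 0.0286 (SD, n = 3) in NC, 0.379 ± 0.0256 in SFRP2 siRNA and 1.18 ± 0.153 in RAB6A siRNA libraries. The lowest RAB6A siRNA ratio, 1.01, lay above the highest NC ratio, 0.427. Cebpa over Cebpb was 1.96 ± 0.0974 in NC, 1.74 ± 0.327 in SFRP2 siRNA and 0.820 ± 0.192 in RAB6A siRNA libraries, the last between 0.663 and 1.03 and below every NC library. For this pair the overlap of Cebpb with Tmem189 applies as well. Klf6 over Klf2 was 1.42 ± 0.118 in NC and 2.49 ± 0.822 in RAB6A siRNA libraries, with little agreement among the latter, which ranged from 1.78 to 3.39. These ratios are descriptions of values that were in view at the choice of the genes.

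**Figure D3:**
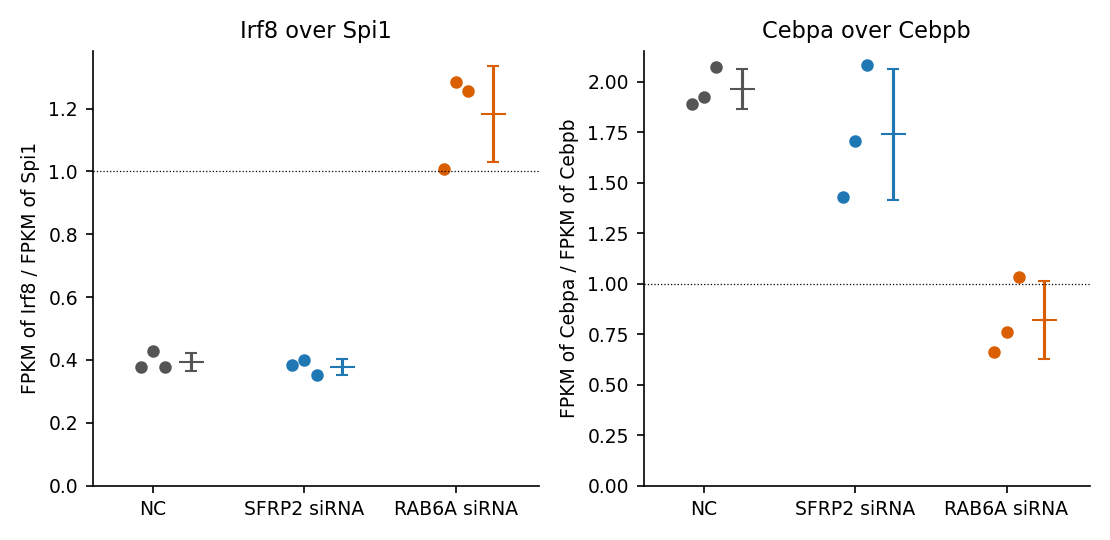
Ratio of FPKM values within each library for Irf8 over Spi1 (left) and Cebpa over Cebpb (right), as points, with the mean and SD of 3 libraries beside them and a dotted line at 1. Irf8 over Spi1 is below 0.43 in all NC and SFRP2 siRNA libraries and above 1 in RAB6A siRNA libraries.

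Promoter sequences of RefSeq (GRCm38.p6, 250 bases before and 50 after a start site) were matched for 7 of the 9 factors, with 9 start sites. None was used for Maf and Spi1. They were searched on both strands for letters that the factors or their common partners recognise. Of the lineage factors, PU.1 and the other ETS proteins were represented by GAGGAAG, the core that Spi1 binds in myeloid enhancers, and Runx1 by TGTGGTT, the core of the RUNX site. For the IRF proteins the letters were GAAANNGAA, in which N is any base, and for the C/EBP proteins TTGCNNAA, which covers the palindrome they bind as dimers. The KLF proteins were represented by CACACCC, the box they bind in globin and other genes, and the Maf proteins by TGCTGAC, the core of their recognition element. For comparison with general inducible promoters, the AP-1 site TGACTCA was added. The NF-kB letters GGGANNTTC and the TATA box TATAAA completed the search, and no 2 matches overlapped. Of these letters TATAAA occurred in 3 of the 9 windows, those of Cebpa, Irf8 and Cebpb, against 13.6% of all 32851 promoter windows, and TGTGGTT in 1, the distal Runx1 start, against 5.27%. The TATAAA match of Cebpb began 22 bases into the transcript, so it lay after the start. In Cebpa, lower with RAB6A siRNA, and in Irf8, higher, the match began 30 and 31 bases before the start, and 1.75% of all windows held TATAAA on the sense strand beginning between 35 and 25 bases before it. These 2 stretches are shown because factors that differed from NC in opposite directions share this feature, and the capitals mark TATAAA. The first is chr7:35119043-35119292 and the second chr8:120736108-120736357, both on the plus strand and ending at the base before the start.
Cebpa: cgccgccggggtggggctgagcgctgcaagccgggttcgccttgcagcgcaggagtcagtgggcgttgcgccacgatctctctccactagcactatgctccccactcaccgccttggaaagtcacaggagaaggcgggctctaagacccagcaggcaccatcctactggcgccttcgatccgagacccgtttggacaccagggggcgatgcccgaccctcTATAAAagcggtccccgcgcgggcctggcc
Irf8: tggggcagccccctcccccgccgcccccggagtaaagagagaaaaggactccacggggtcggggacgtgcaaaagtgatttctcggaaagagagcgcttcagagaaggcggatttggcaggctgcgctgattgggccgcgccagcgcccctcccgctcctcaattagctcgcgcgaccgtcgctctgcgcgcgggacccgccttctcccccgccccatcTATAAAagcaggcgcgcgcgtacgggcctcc

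Runx1 has a distal and a proximal start, and the 2 windows differed in base content, with 2 CpG dinucleotides and 45% GC at the distal start against 35 CpG and 69% GC at the proximal one. The median window had 7 CpG. The distal window alone held RUNX letters, 2 copies on the strand opposite to the transcript, beginning 28 and 36 bases into the transcript. They are shown as the only match to a member's own recognition letters, in capitals, within bases 21 to 50 after the start, at chr16:92826025-92826054 on the minus strand.
Runx1: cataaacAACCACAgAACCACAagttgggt
A gene-level FPKM adds transcripts from both starts, so which of them the higher Runx1 level came from was not analysed here.

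Which factors differed with SFRP2 siRNA was the next question, since SFRP2 was the target of the study. All 9 differences were small. Spi1 and Irf8 were lower than in every NC library, with log2 fold changes of -0.19 (SE 0.06) and -0.25 (SE 0.07), and the lowest NC library of each was 1.04-fold and 1.03-fold above the highest SFRP2 siRNA library. With the GC and length correction the difference of Spi1 was only -0.05 (SE 0.05). The other 7 overlapped with NC, from Klf2 at -0.24 (SE 0.13) to Maf at 0.23 (SE 0.15), with Klf4 at 0.18 (SE 0.27), Cebpb at 0.13 (SE 0.18), Klf6 at 0.04 (SE 0.10), Runx1 at -0.03 (SE 0.07) and Cebpa at -0.06 (SE 0.09) between them. Groups did not overlap for 24.7% of the 12017 genes tested, 10.9% higher and 13.9% lower. No gene passed an adjusted p of 0.05 by limma (0.0% called), while 2220 genes (18.5%) had an unadjusted p under 0.05. The paper did report genes past the same thresholds, in both directions, for SFRP2 siRNA in polarized RAW264.7 cells. It used DESeq2, which was not run here, so the 2 results come from unlike methods. Limma with voom weights on reads recovered from the FPKM values gave 49 genes with adjusted p under 0.05 (0.42%) and called 2 (0.0171%), none of them a member. Maf, the factor that differed most with RAB6A siRNA, had a mean of 16.0 ± 2.81 FPKM (SD, n = 3) with SFRP2 siRNA and overlapped with NC.

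The genes around these factors were followed in 11 lists that hold no member, covering relatives, partners and target genes, with 141 of 205 list genes tested with RAB6A siRNA. Of these 52 rose and 57 fell at adjusted p under 0.05 (limma), with a median log2 fold change of -0.05 beside 0.03 over all genes tested, of which 37.6% rose and 36.5% fell. Of 26 other factors of the macrophage and myeloid lineage, 13 rose and 11 fell. Nr4a1, an orphan nuclear receptor induced by inflammatory signals, rose from 3.69 ± 0.615 to 22.7 ± 1.78 FPKM (log2 fold change 2.60, SE 0.12, adjusted p = 2.5e-06), and Id1, an inhibitor of basic helix-loop-helix proteins, rose by 2.34. Gfi1, a repressor that favours granulocytes, fell by 2.85 on the log2 scale from 1.29 to 0.0972 FPKM, and the homeobox gene Hhex fell by 2.22 on the log2 scale from 29.4 to 6.23 FPKM.

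Partners and relatives of the C/EBP factors changed in both directions, with 2 of 9 higher and 3 lower. Cebpd, a relative induced by LPS, fell by 1.99 on the log2 scale from 32.2 ± 0.803 to 8.03 ± 0.244 FPKM (limma adjusted p = 6.8e-07), and Trib1, whose protein leads C/EBPα to degradation, fell by 2.41 on the log2 scale. Ddit3, a stress-induced C/EBP protein that blocks the others as a partner, rose from 15.9 to 63.5 FPKM, and Nfil3, a related leucine zipper repressor, from 6.35 to 12.8 FPKM. Of the Maf family, the small Maf proteins Mafk (log2 fold change 1.03) and Mafg (0.25) rose and Maff (-0.50) fell. The call for Mafg was lost without NC replicate 2 and without RAB6A siRNA replicate 1 or 2, with adjusted p up to 0.0696.

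Of 15 ETS relatives of Spi1, 8 fell and 4 rose, and with the GC and length correction 5 fell and 4 rose, the calls of Elf4, Elk1 and Etv6 being lost. Among them were Ets2 (-1.33) and Elf1 (-0.89), which fell, and Etv4 (1.59) and Etv3 (1.17), which rose. Of 7 IRF relatives 5 fell and 1 rose. Irf4, which like Irf8 binds with PU.1, fell from 1.32 ± 0.188 to 0.285 ± 0.0842 FPKM (log2 fold change -1.90, limma adjusted p = 2.4e-04), and Irf1 fell from 31.4 to 14.7 FPKM. Irf7, the amplifier of type I interferon, rose from 139 to 229 FPKM, the same direction as Irf8. Of 6 KLF relatives Klf9 rose (0.52) and Klf10 (-1.06) and Klf16 (-1.02) fell. Among the 4 tested Runx1 partners and relatives, Cbfb, the subunit that stabilizes Runx1 on DNA, fell from 50.04 ± 5.36 to 15.9 ± 2.74 FPKM (log2 fold change -1.66, limma adjusted p = 1.9e-05) and Runx3 fell by 0.57 on the log2 scale, while Runx2 rose by 0.92. Cbfb thus fell in cells where the Runx1 transcript was higher.

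**Figure D4:**
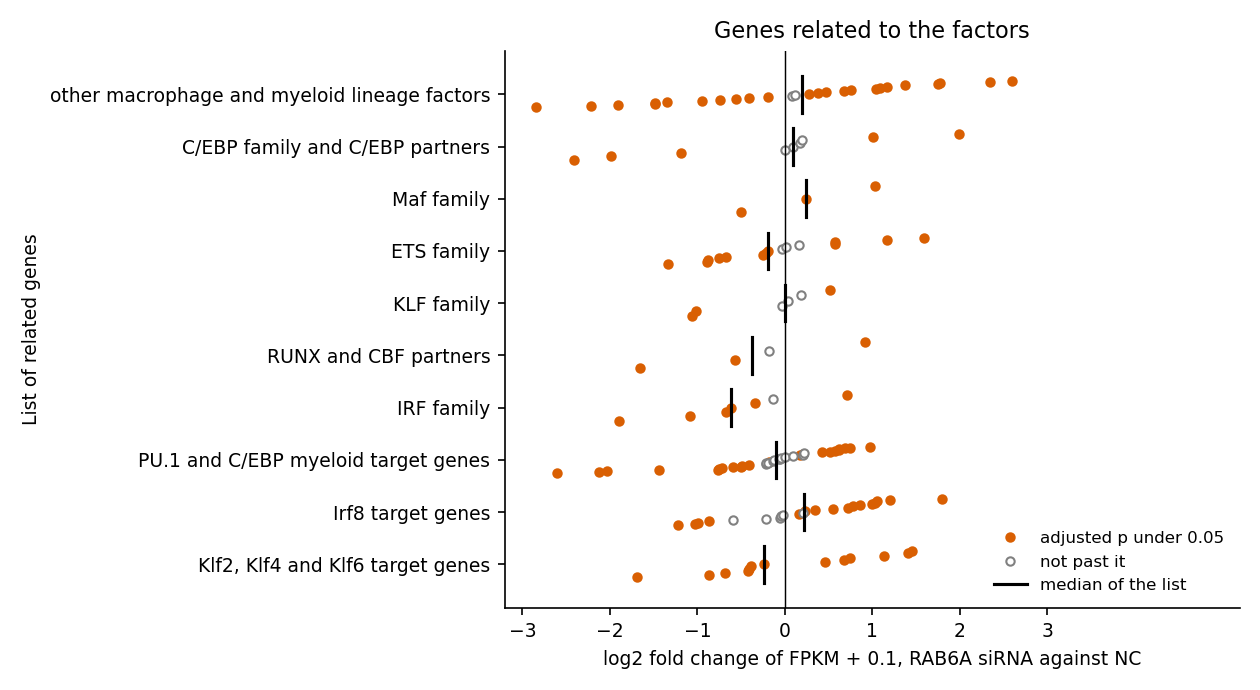
Log2 fold change (FPKM + 0.1, RAB6A siRNA against NC) of each tested gene of 10 of the lists, filled where the limma adjusted p was under 0.05, with a black bar at each list's median. Both directions occur in every list shown, and the medians lie between -0.62 for the IRF family and 0.25 for the Maf family.

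Known target genes also changed in both directions. Of 34 tested myeloid targets of PU.1 and C/EBP, 10 rose and 12 fell, with a median of -0.10. Tlr2, the receptor for bacterial lipopeptides, fell from 75.3 ± 2.17 to 12.4 ± 1.61 FPKM (log2 fold change -2.60, limma adjusted p = 1.4e-06), and Cd300a, an inhibitory receptor, from 8.66 to 1.91. By contrast Tyrobp, the DAP12 signaling adaptor, rose from 210 to 413 FPKM and Coro1a, an actin-binding protein, from 67.1 to 113. The log2 fold change of Tyrobp, 0.97, was 0.20 with the GC and length correction, with a limma adjusted p of at most 0.0254 over the alternatives. Csf1r, the M-CSF receptor and a classical target of PU.1 and Runx1, fell from 73.6 ± 8.48 to 27.0 ± 1.19 FPKM (-1.44), and the lysozyme gene Lyz2 from 872 ± 24.0 to 214 ± 23.0 (-2.03), both named after their values were seen. Adgre1, a surface receptor used to mark mouse macrophages, stood at 56.3 FPKM in both groups.

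Il10, the anti-inflammatory cytokine that c-Maf activates, fell from 3.62 ± 0.345 to 0.488 ± 0.169 FPKM (log2 fold change -2.70, SE 0.23, limma adjusted p = 3.1e-05). Of 22 targets of Irf8, 12 rose and 4 fell, where 37.6% of all genes tested rose and 36.5% fell. The median of this list was 0.22, beside 0.03 over all genes tested. With quantile normalization 11 of the list rose and 8 fell. Cd74, the invariant chain of MHC class II, rose from 66.6 ± 7.0 to 231 ± 8.17 FPKM (1.79) and Gm2a, a lysosomal lipid cofactor, from 5.97 to 13.9, while the pore-forming Mpeg1 fell from 212 to 91.0 FPKM and the inflammasome sensor Naip2 from 8.82 to 4.28. All 13 tested targets of the KLF factors passed the test, 6 higher and 7 lower, beside 74.1% of all genes tested. Of these calls that of Tgfbr1 was lost in 7 alternatives (limma adjusted p up to 0.0935), that of Ptgs2 with quantile normalization (0.112) and that of Tgfb1 with the GC and length correction (0.114). Zfp36, an RNA-binding protein that destabilizes cytokine mRNA, rose from 157 to 428 FPKM and Txnip, which binds thioredoxin, from 47.7 to 128, whereas the chemokine Ccl2 fell from 2142 ± 151 to 664 ± 60.2 FPKM and Il6ra from 3.80 to 2.03.

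With SFRP2 siRNA 0 of 142 tested list genes passed an adjusted p of 0.05 by limma, and 29 had an unadjusted p under 0.05. The voom fit passed 2, Klf7 higher and Itgb2 lower, both at an adjusted p of 0.049. By limma on log2 FPKM, Klf7, a widely expressed KLF factor, had a log2 fold change of 0.26 and Itgb2, the common chain of leukocyte integrins, -0.28, each with an adjusted p of 0.163. Irf1 was also at 0.163, with a log2 fold change of -0.31. The smallest p of the other lists belonged to Cebpe (-0.35), Id3 (-0.30), Lgmn (-0.22), Eng (-0.35), Elk4 (0.16), Mafk (-0.19), Cbfb (0.24) and Il10 (-0.12), with adjusted p from 0.178 to 0.526. Of 35 tested myeloid targets of PU.1 and C/EBP, 13 were lower and 1 was higher with SFRP2 siRNA without overlap. Of 22 Irf8 targets, 4 were lower and 0 higher without overlap. Over all genes tested the shares were 13.9% lower and 10.9% higher. Median log2 fold changes of these lists were -0.12 and -0.06, beside -0.01 over all genes. The lists were chosen with earlier results known and none of their genes passed by limma, so these counts are descriptions.

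Genes that flank the factors on the chromosome were compared next, with the nearest tested gene on each side that does not overlap them, a rule set after the values of the factors were seen. Their distances ran from 12.0 kb for Slc39a13 to 1252 kb for Akr1e1, so flanking does not mean adjacent. Around Maf, Wwox at 330 kb had a log2 fold change of 0.12 (SE 0.07, limma adjusted p = 0.169) with RAB6A siRNA and Cdyl2 at 867 kb one of 0.10 (SE 0.18, adjusted p = 0.64). The change of Wwox was at most 0.27 in any alternative fit, where voom and the GC and length correction passed it, against -4.71 for Maf. Spi1 lay between Slc39a13, which rose by 0.55, and Madd, which fell by 0.58 on the log2 scale. Next to Cebpa, its relative Cebpg had 0.20 (adjusted p = 0.0836) and Gpatch1 fell by 0.44 on the log2 scale, a call lost with the GC and length correction (-0.24, adjusted p = 0.0547). Cox4i1, upstream of Irf8, rose by 0.55 in the same direction as Irf8, a call lost with the GC and length correction (0.13, adjusted p = 0.0516), and Mthfsd on the other side was at -0.35 (adjusted p = 0.0382), a call lost in 8 of the alternative fits. Rad23b, 135 kb from Klf4, fell by 1.15 on the log2 scale, and so did Pitrm1, 678 kb from Klf6 (-1.15), although Klf4 and Klf6 were higher. Runx1 lay between Rcan1 (-0.84) and Setd4 (0.74), which passed the test in opposite directions. Klf2 lay between Gm10282, which fell by 1.70 on the log2 scale, and Eps15l1 at 0.17 (adjusted p = 0.0591). Beside Cebpb, Ube2v1 rose by 1.01, a call lost with quantile normalization (adjusted p = 0.0745), and the noncoding Gm14321 was at -0.11 (adjusted p = 0.823), while Akr1e1 on the other side of Klf6 was at -0.13 (adjusted p = 0.365).

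**Figure D5:**
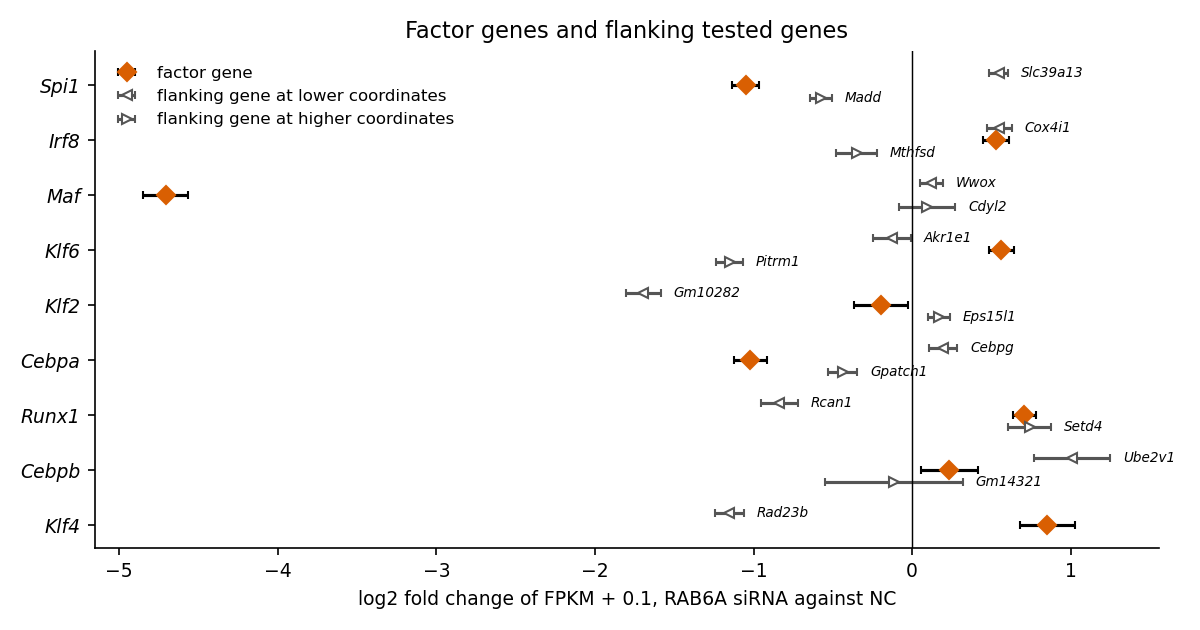
Log2 fold change (FPKM + 0.1, RAB6A siRNA against NC) with standard errors of each factor gene (orange diamonds) and of the nearest tested gene at lower and higher coordinates (open triangles, for Klf4 at lower coordinates alone). Maf lies at -4.71 with its flanking genes Wwox at 0.12 and Cdyl2 at 0.10, and Klf4 and Klf6 lie to the right of 0 with Rad23b and Pitrm1 to the left.

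Finally, each factor was set beside the protein-coding genes whose profile over the 9 libraries was most like its own. The measure was the root mean square difference of log2 levels after centring each gene, over 10130 genes, and it is a description with no test. Maf was nearest to Gpr84, a receptor for medium-chain fatty acids (0.32), which had 30.7 FPKM in NC and 1.41 in RAB6A siRNA cells, and to the chemokine receptor Ccr1 (0.37). These distances were larger than those of any other factor. The measure is not scaled by the size of a gene's change, which was largest for Maf. A larger distance therefore does not show a less similar shape. Spi1 was nearest to the histone deacetylase Hdac1 and the tyrosine kinase Syk (both 0.06), Irf8 to the ribosomal gene Rplp2 and to Naca (both 0.05), and Cebpa to Zc3h7b and Klf16 (both 0.07). Runx1 was nearest to Rcor3 (0.05) and Zkscan17 (0.06), Klf6 to Kdm5a (0.05) and Rsrc2 (0.06), Klf2 to Psmb5 (0.08) and Apopt1 (0.12), Klf4 to Ddb2 (0.13) and Sik2 (0.16), and Cebpb to Trir (0.13) and Coa6 (0.14).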

How the data were processed

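Total RNA of 9 RAW264.7 samples was sequenced as paired-end mRNA libraries, and the authors deposited 1 table of FPKM per Ensembl gene, 1 column per library. The submitters' processing notes name HISAT2, featureCounts and Subread. Versions, genome build, annotation and strand setting are not given in the sources used here. Identifiers were named with GENCODE M21, and groups were taken from the labels. FPKM steps gave whole reads (within 0.03 read) in all 9 libraries for 98.3% of named genes, which gave the depth per library. Each siRNA group was compared with NC by limma 3.58.1 (R 4.3.3) on log2(FPKM + 0.1), with an eBayes trend and no covariate, for genes whose FPKM averaged 0.5 or more over the 6 libraries, with Benjamini-Hochberg adjustment over all genes tested. Limma was used because the deposited unit is not counts, and the thresholds are those of the study. Fold changes on this scale are understated for genes at low FPKM. Intervals of counting error were not used, and precision is given as the SD or SE over 3 libraries.

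The factors and the lists of related genes were chosen with earlier results of these data known, and the lists are from general knowledge. Named from each list were the 2 genes of highest and the 2 of lowest log2 fold change with RAB6A siRNA among those past adjusted p under 0.05 with no overlap of groups, the gene of smallest p with SFRP2 siRNA, and for each factor the 2 genes of most similar profile. Genes flanking the factors were added after their values were seen. The counts of 1 list and the values of 1 flanking gene are not reported here. Alternatives were pseudocounts of 1 and 0.01, other filters on low values, scaling by median ratios, quantile normalization, no eBayes trend, a replicate block, all 9 libraries in one fit, voom on recovered reads, leaving out each library, and, chosen after seeing the data, a spline correction (5 degrees of freedom) for GC content and length. The fits were tested on simulated data. Python 3.11.15 with pandas 2.3.3 and matplotlib 3.10.9 was used for summaries and plots.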

Additional observations from a re-analysis of the deposited data

How the results depend on the processing

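Genes called with RAB6A siRNA numbered 3829 and fell to 2389 with a pseudocount of 1. Leaving out each library gave 3583 to 3909. With SFRP2 siRNA no gene was called, against 2 with voom on recovered reads and 0 to 1 when each library was left out, the 1 arising without NC replicate 1. List genes past the threshold with SFRP2 siRNA numbered 0, against 1 higher and 1 lower with voom. As a description only, members past both thresholds with RAB6A siRNA numbered 3 and 1 to 3 when each library was left out. Pseudocount 1 and voom each left 2, voom with Klf4 at 1.03 and with Spi1 at -0.98 and Cebpa at -0.96, below the fold threshold. The log2 fold change of Maf with RAB6A siRNA ran from -5.20 to -3.35 over 17 alternatives, the smallest size with a pseudocount of 1. No member past adjusted p under 0.05 changed sign in any alternative. Klf4 did not enter the test when a mean FPKM of 1 was required. With SFRP2 siRNA, where no member passed, Klf6 changed sign in 3 alternatives, Cebpa in 2, and Cebpb, Klf4 and Runx1 in 1 each. Same-numbered libraries did not deviate together (correlation over genes of -0.03 to 0.03 for RAB6A siRNA and -0.06 to 0.05 for SFRP2 siRNA), so numbers do not pair the libraries, and the replicate block called 3852 genes with RAB6A siRNA and 0 with SFRP2 siRNA. At 56 to 130 reads per library, Klf4 was the most thinly read member, and Maf in RAB6A siRNA cells rests on 109 to 135 reads. With a pseudocount of 1 the log2 fold changes with RAB6A siRNA of Gfi1 (-1.05), Il10 (-1.64), Irf4 (-0.85), Trib1 (-1.57), Klf10 (-0.67) and Runx2 (0.49) were over 1.5 times smaller, and so was that of Setd4 (0.44) with quantile normalization, all still past adjusted p under 0.05 by limma.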
